A study of Mus musculus with 6 samples.

Results

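A set of 50 genes that build and run the lysosome was examined in 4T1-T cells sorted by their uptake of acetylated low-density lipoprotein (acLDL). The genes were chosen by name, by a rule that used no measured value, although earlier results of these data were known when the set was drawn up, and all 50 were among the 15973 protein-coding genes of the authors' table. Of these, 49 passed the filter on low counts, out of 12572 genes tested, and the gene that did not pass was Ctss (cathepsin S). The set held 7 lysosomal membrane proteins, 9 proteases, 10 glycosidases and sulfatases, 5 lipid hydrolases or their cofactors, the 2 mannose 6-phosphate receptors, 3 MiT/TFE transcription factors, 6 subunits of the V0 sector of the proton pump or its accessory proteins, and 8 subunits of the V1 sector.

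The lysosome is an acidic compartment in which proteins, sugars, lipids and endocytosed lipoproteins are degraded. Its hydrolases carry a mannose 6-phosphate tag that sorting receptors read in the trans-Golgi network, and its low pH is set by the vacuolar H+-ATPase, in which the cytosolic V1 sector hydrolyses ATP and the membrane-embedded V0 sector carries the protons. Many of these genes share a promoter element, called CLEAR, that is bound by the MiT/TFE factors and is built around the E-box CACGTG. Modified lipoproteins such as acLDL enter cells through scavenger receptors and pass through endosomes to lysosomes.

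All 6 libraries came from a single line, a sub-clone of the mouse mammary carcinoma line 4T1 with vasculogenic mimicry (VM) competence, grown in RPMI with 10% FBS. After overnight starvation in Opti-Mem with 0.3% BSA, every culture received Alexa-488 acLDL at 10 ug/mL for 4 hours and then complete medium for 1 hour. The brightest 25% of cells (acLDL-high) and the dimmest 25% (acLDL-low) were sorted, and the procedure was carried out on 3 occasions, giving 3 libraries per population that share a replicate number by occasion. There was no unsorted or unlabelled population, so the comparison asks which lysosomal genes differed between cells that had taken up more and less of the same lipoprotein.

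The libraries held 70263372 to 94216786 counts. The lysosomal genes took 0.662% to 0.882% of them in acLDL-low and 0.682% to 0.911% in acLDL-high, ranges that overlapped. Levels are given as CPM, the count of a gene relative to the library's total over the genes tested, scaled by edgeR's TMM factors. On this scale 3 counts in a library came to 0.0323 to 0.0429 CPM. Of the epithelial markers listed for mammary carcinoma, 7 of 8 were tested and none was called between the populations, and the summed level of the list was 3004 to 5158 CPM in acLDL-low and 3306 to 5434 CPM in acLDL-high. Of the macrophage markers, 5 of 10 were tested, Adgre1 and Tyrobp were at 0 in every library and Lyz2 had 2 counts in all, and the list summed to 19.3 to 21.8 CPM in acLDL-low and 20.1 to 24.5 CPM in acLDL-high. Cd14, an endotoxin co-receptor, was the 1 macrophage marker called (log2 fold change 0.32, adjusted p = 0.0246, edgeR), and the part of such cells in the values of the lysosomal genes was not tested. The endothelial list, of which 3 of 8 were tested and none was called, summed to 1.56 to 2.64 CPM and 1.51 to 2.32 CPM, with Emcn and Cldn5 at 0.

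The promoters of 4 of the genes are shown because they carry the E-box at more than 1 position and belong to the 2 genes that passed the test below, Atp6v0b and Cln3, and to 2 defining membrane proteins of the organelle, Lamp1 and the calcium channel Mcoln1. They come from RefSeq on GRCm38.p6, run 5′ to 3′ on the strand of the gene from 250 bases before to 50 bases after the start, and have CACGTG in capitals. They lie at chr4:117887280-117887579 (minus strand, Atp6v0b), chr7:126583187-126583486 (minus strand, a start of Cln3), chr8:13158911-13159210 (plus strand, Lamp1) and chr8:3500269-3500568 (plus strand, Mcoln1).
Atp6v0b: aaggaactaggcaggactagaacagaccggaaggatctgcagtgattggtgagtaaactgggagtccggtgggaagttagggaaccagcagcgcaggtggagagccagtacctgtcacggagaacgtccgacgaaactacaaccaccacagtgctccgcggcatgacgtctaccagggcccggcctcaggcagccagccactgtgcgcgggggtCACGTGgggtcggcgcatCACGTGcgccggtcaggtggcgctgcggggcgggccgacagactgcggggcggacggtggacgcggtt
Cln3: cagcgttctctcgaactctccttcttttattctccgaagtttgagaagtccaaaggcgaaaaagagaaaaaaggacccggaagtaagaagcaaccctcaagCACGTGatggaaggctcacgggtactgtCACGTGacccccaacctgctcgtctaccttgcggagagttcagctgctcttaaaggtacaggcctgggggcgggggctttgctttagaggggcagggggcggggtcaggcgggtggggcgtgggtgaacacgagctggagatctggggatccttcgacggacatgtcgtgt
Lamp1: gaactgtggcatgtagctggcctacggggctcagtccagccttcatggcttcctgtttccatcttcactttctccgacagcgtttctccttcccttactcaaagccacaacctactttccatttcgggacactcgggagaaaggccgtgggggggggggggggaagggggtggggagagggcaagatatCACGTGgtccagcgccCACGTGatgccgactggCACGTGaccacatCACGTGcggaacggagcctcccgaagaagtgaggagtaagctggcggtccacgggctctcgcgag
Mcoln1: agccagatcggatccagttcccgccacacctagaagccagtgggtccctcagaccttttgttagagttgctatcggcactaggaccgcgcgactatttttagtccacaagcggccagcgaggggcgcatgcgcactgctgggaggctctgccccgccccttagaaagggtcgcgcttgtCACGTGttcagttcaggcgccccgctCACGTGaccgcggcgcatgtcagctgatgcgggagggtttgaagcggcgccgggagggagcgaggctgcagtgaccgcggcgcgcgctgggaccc
The E-boxes of Atp6v0b began 36 and 18 bases before the start, those of Mcoln1 71 and 45 bases before it, and those of Lamp1 61, 45, 28 and 15 bases before it. In Cln3 they began 149 and 121 bases before the start shown, and the window of its other start held none. The start shown lies inside the gene. The window without an E-box, chr7:126585768-126586067, is the one at the 5′ end of the gene, which is at chr7:126585817.

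A promoter was found in the RefSeq table for 42 of the 50 genes, with 52 windows in all. CACGTG, which reads the same on either strand, was in 15 of these 52 windows (28.8%), whereas it was in 7.15% of all 32851 promoters of the same length and in 9.64% of the promoters of genes tested. The longer palindrome TCACGTGA, which contains CACGTG, was in 8 of the 52 windows (15.4%) against 0.974% of all promoters and 1.75% of those of genes tested. By gene, CACGTG was in a window of 8.09% of all genes with a promoter and of 11.5% of the genes tested with one. In the set, 15 of 42 genes (35.7%) held it. They were 3 of 7 membrane proteins (Cln3, Lamp1, Mcoln1), 3 of 7 proteases (Ctsa, Ctsd, Ctsl), 5 of 10 glycosidases and sulfatases (Arsa, Gla, Glb1, Naglu, Sgsh), 1 mannose 6-phosphate receptor (Igf2r) and 3 of 10 proton pump subunits (Atp6v0b, Atp6v0d1, Atp6v1a). None of the 4 lipid hydrolase genes with a promoter and none of the 3 MiT/TFE genes held it. These are matches of letters in a window and not mapped binding sites.

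Divided by exon length, the levels of the 49 genes ran from 265 CPM per kb for Ctsl to 0.947 CPM per kb for Tfeb. Ctsl (cathepsin L, a cysteine protease) averaged 265 ± 83.8 CPM per kb (SD, 6 libraries), followed by Lamp1 (a heavily glycosylated protein of the limiting membrane) with 222 ± 23.1, Psap (the precursor of the saposins, cofactors of sphingolipid breakdown) with 192 ± 23.9, Ctsz (cathepsin Z) with 157 ± 8.21 and Laptm4a (a small transmembrane protein) with 113 ± 7.31. The ranges of Ctsl, Lamp1 and Psap over the 6 libraries overlapped from one to the next, so their order is not fixed. Ctsl alone accounted for 16.2% to 27.2% of the counts of the set. Of the MiT/TFE factors, Mitf and Tfeb were at the low end of the set, at 2.37 ± 0.385 and 0.947 ± 0.0543 CPM per kb. Tfe3 reached 11.2 ± 0.508 CPM per kb.

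**Figure D1:**
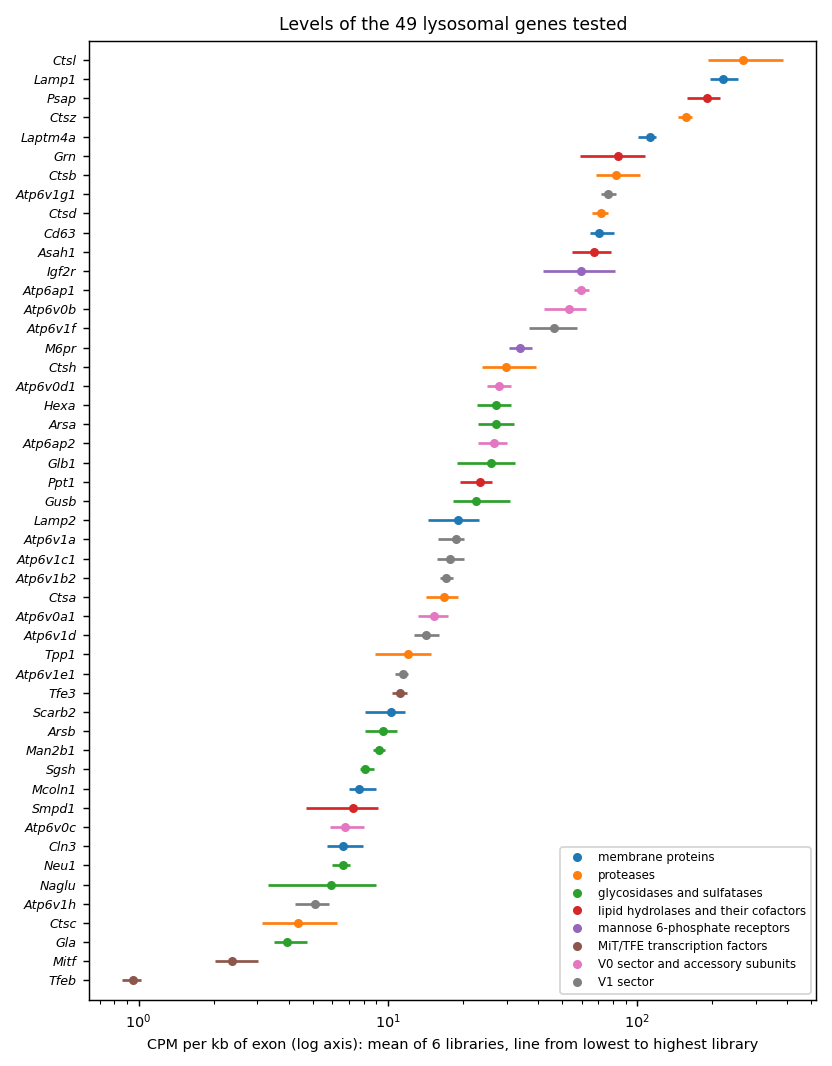
Level of each of the 49 lysosomal genes tested, in CPM per kb of exon on a log axis, with points for the mean of 6 libraries, lines from the lowest to the highest library and colours for the role. Ctsl, Lamp1 and Psap lie at the top with 265, 222 and 192 CPM per kb, and Mitf and Tfeb at the bottom with 2.37 and 0.947.

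Few lysosomal genes were called between the populations, 2 of 49, a share near that of all genes tested, 597 of 12572. Of the 49 tested, 0 were called higher in acLDL-high (background 3.43% of all genes tested) and 2 were called lower (background 1.32%), at an adjusted p under 0.05 in edgeR's quasi-likelihood test with replicate as a block. Those 2 were Atp6v0b and Cln3. At an unadjusted p under 0.05, 8 were higher (16.3%, beside 10.6% of all genes) and 2 lower (4.08%, beside 8.73%), together 20.4% beside 19.4% of all genes. DESeq2 gave 7 of 49 at that level (14.3%, beside 13.1% of all genes), with 0 called higher and 1 called lower, since Cln3 no longer passed (adjusted p = 0.106). The median log2 fold change was 0.02 (range -0.18 to 0.20), beside 0.0017 over all genes tested, and the medians within the 3 pairs were -0.0019, 0.01 and 0.03. Of the set, 34 of 49 (69.4%) lay above 0 beside 50.6% of all genes, and 20 of 49 (40.8%) had the same direction in all 3 pairs beside 40.4% of all genes, 13 of them higher and 7 lower. The changes were small in size, with a median absolute log2 fold change of 0.04 beside 0.07 over all genes. The 95% interval lay wholly between -0.25 and 0.25 for 44 of 49 (89.8%), beside 60.9% of all genes. The intervals were narrower in the set, reaching a median of 0.0962 to either side of the estimate, beside 0.12 over all genes. The background was not matched for level, so whether these genes changed less than others of like level was not tested. Without the replicate block, 0 of 12329 genes were called, 45 genes had an unadjusted p under 0.05, and neither Atp6v0b nor Cln3 passed. Leaving out the pair of replicate 1 or of replicate 3 also left 0 lysosomal genes called, and leaving out that of replicate 2 left 1 lower (Atp6v0b) and 2 higher (Mitf and Arsb).

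**Figure D2:**
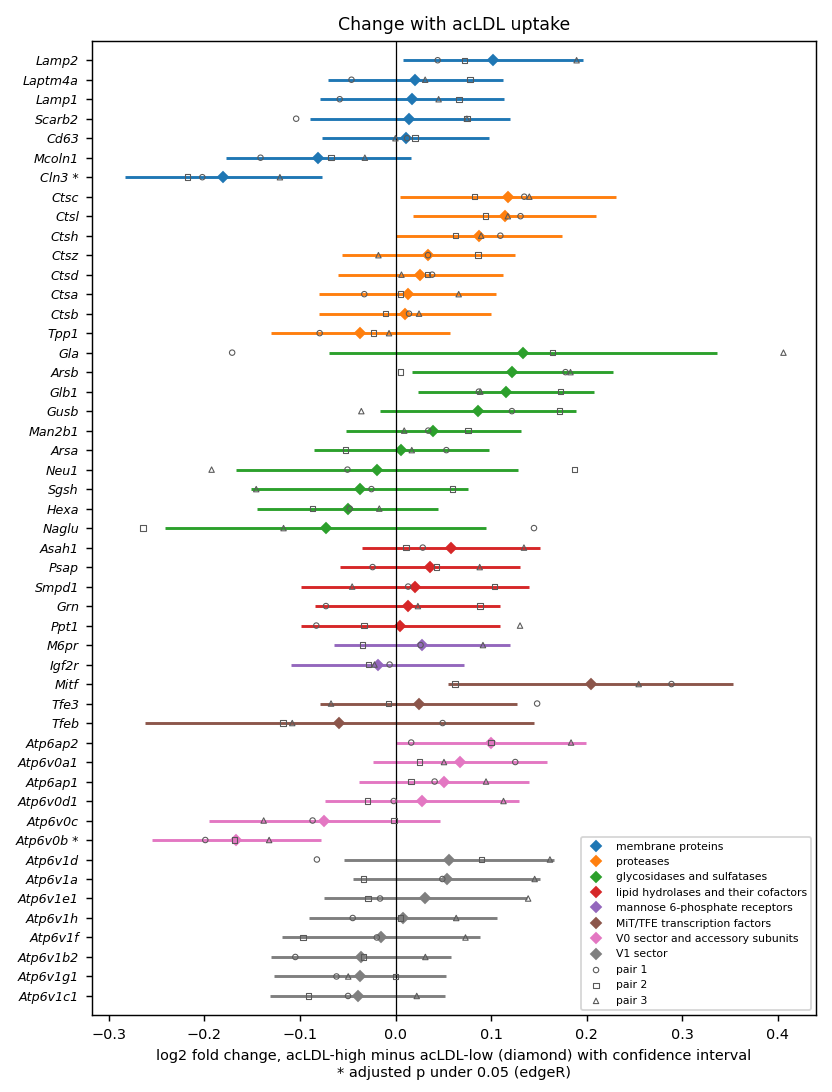
Log2 fold change of each lysosomal gene, acLDL-high minus acLDL-low, with diamonds and lines for the edgeR estimate and its 95% interval, open symbols for each pair of libraries, colours for the role and asterisks for an adjusted p under 0.05. The estimates lie between -0.18 and 0.20, and the 2 genes with an asterisk, Cln3 and Atp6v0b, are both below 0.

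Among the 7 membrane proteins, Cln3, a transmembrane protein whose loss causes a juvenile form of neuronal ceroid lipofuscinosis, was called lower. Its gene lies on the minus strand at chr7:126571207-126585817. Cln3 stood at 37.9, 46.0 and 38.0 CPM in acLDL-low and at 33.0, 39.5 and 35.0 CPM in acLDL-high. The populations overlapped, since the second acLDL-high library lay above the acLDL-low libraries of replicates 1 and 3, but acLDL-high was the lower member of each of the 3 pairs. The log2 fold change was -0.18 (SE 0.05, 95% interval -0.28 to -0.08, adjusted p = 0.0495, edgeR). Of 9 alternatives, 2 left it under 0.05, with adjusted p from 0.0369 to 1 and log2 fold changes from -0.21 to -0.16. The gene overlaps Apobr on the opposite strand over 7.65% of its exons, and the strand setting of the counting is not given in the sources used here, so its counts may hold reads of Apobr.

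The other 6 membrane proteins did not pass. Lamp1 had 681, 562 and 528 CPM in acLDL-low and 654, 588 and 544 CPM in acLDL-high. The populations overlapped and the pairs did not share a direction (log2 fold change 0.02, SE 0.04, adjusted p = 0.879). Laptm4a had 211, 179 and 206 CPM in acLDL-low and 205, 189 and 210.3 CPM in acLDL-high (log2 fold change 0.02, SE 0.04, adjusted p = 0.846), and its ranges overlapped too. Lamp2, the partner of Lamp1 that is needed for chaperone-mediated autophagy, was higher in 3 of 3 pairs, with a log2 fold change of 0.10 (SE 0.04, adjusted p = 0.22). Mcoln1, the calcium release channel of the lysosome, was lower in 3 of 3 pairs, with -0.08 (SE 0.04, adjusted p = 0.352). Cd63, a tetraspanin, and Scarb2, the receptor that carries glucocerebrosidase to the lysosome, both had 0.01.

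Of the 8 proteases tested, 0 were called, and their median log2 fold change was 0.03. Ctsl had 1249, 1398 and 2314 CPM in acLDL-low and 1368, 1492 and 2510.5 CPM in acLDL-high. The third library of each population was the highest and the populations overlapped, while acLDL-high was the higher member of all 3 pairs. The log2 fold change was 0.11 (SE 0.04, 95% interval 0.02 to 0.21), with an adjusted p of 0.176 that did not pass. Ctsl overlaps 2 other gene models, 1 of them on its own strand, over up to 26.8% of its exons, so its counts are uncertain there. Ctsz had 211, 219.9 and 239 CPM in acLDL-low and 216, 233 and 236 CPM in acLDL-high (log2 fold change 0.03, SE 0.04, adjusted p = 0.715), with overlapping ranges.

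Ctsc (cathepsin C, which activates granule serine proteases) and Ctsh (cathepsin H, an aminopeptidase) were also higher in 3 of 3 pairs without passing, at 0.12 (SE 0.05, adjusted p = 0.235) and 0.09 (SE 0.04, adjusted p = 0.257). The major cathepsins B and D showed little difference, at 0.01 for Ctsb and 0.03 for Ctsd on the log2 scale, the latter higher in 3 of 3 pairs. The tripeptidyl peptidase Tpp1 had -0.04 and was lower in 3 of 3 pairs, and Ctsa (protective protein, which stabilises neuraminidase and beta-galactosidase) had 0.01. Ctsd shares 34.4% of its exon length with another gene model on its strand.

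Ctss, typical of antigen-presenting cells, was too rare to pass the filter on low counts. It had 0 counts in each acLDL-low library and 6, 1 and 4 counts in the acLDL-high libraries. That made 11 counts against 0 over the populations. Without the filter on low counts its unadjusted p was 0.0703 and its adjusted p was 0.364, so a difference was not shown. Among the macrophage markers, Csf1r had 12 counts in all. It had 0, 0.0248 and 0 CPM in acLDL-low and 0.0503, 0.0278 and 0.0431 CPM in acLDL-high. The 2 counts of Lyz2 were in acLDL-high, and Cd14, called higher, had a log2 fold change of 0.32. Ptprc and Mrc1 had log2 fold changes of 0.83 and 0.30 that did not pass. In the other direction, the 3 counts of Itgam were all in acLDL-low. Fcer1g and Cd68 had log2 fold changes of -0.34 and -0.28 that did not pass. The bearing of such cells on Ctss was not tested.

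Of the 10 glycosidases and sulfatases, 0 were called, with a median log2 fold change of 0.02. The largest positive estimates were 0.13 for Gla (alpha-galactosidase A, SE 0.09), 0.12 for Arsb (arylsulfatase B, SE 0.05) and 0.12 for Glb1 (beta-galactosidase, SE 0.04). Arsb and Glb1 were higher in 3 of 3 pairs, and their adjusted p-values were 0.187 and 0.16. Arsb overlaps gene models on the opposite strand over up to 32.3% of its exons. The lowest was Naglu (alpha-N-acetylglucosaminidase of heparan sulfate breakdown) at -0.07 (SE 0.08, adjusted p = 0.663). Gusb (beta-glucuronidase) had 0.09, Man2b1 (alpha-mannosidase) 0.04, Arsa (arylsulfatase A) 0.01, Neu1 (neuraminidase) -0.02, Sgsh (heparan sulfamidase) -0.04 and Hexa (the alpha subunit of beta-hexosaminidase) -0.05 on the log2 scale. Of these, Hexa was lower and Man2b1 higher in 3 of 3 pairs.

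The 5 lipid hydrolases and cofactors all had estimates above 0, but none passed and none exceeded 0.06. Psap had 569.9, 437 and 554 CPM in acLDL-low and 560.5, 449.9 and 589 CPM in acLDL-high (log2 fold change 0.04, SE 0.04, adjusted p = 0.712). The second library was the lowest of each population, and the ranges overlapped. Asah1 (acid ceramidase) was higher in 3 of 3 pairs with a log2 fold change of 0.06, Smpd1 (acid sphingomyelinase) 0.02, Grn (progranulin, which is cut into granulins in the lysosome) 0.01 and Ppt1 (palmitoyl-protein thioesterase) 0.0050. The receptors that bring hydrolases to the lysosome did not pass either, at 0.03 (SE 0.04, adjusted p = 0.784) for M6pr, the cation-dependent receptor, and -0.02 (SE 0.04, adjusted p = 0.86) for Igf2r, the cation-independent one, which was lower in 3 of 3 pairs.

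The MiT/TFE factors, which switch on lysosomal genes when they enter the nucleus, did not pass at the level of mRNA. Mitf had 12.8, 12.5 and 15.6 CPM in acLDL-low and 15.6, 13.0 and 18.6 CPM in acLDL-high. It was higher in each of the 3 pairs, although the populations overlapped, and its log2 fold change of 0.20 (SE 0.07, 95% interval 0.06 to 0.35, adjusted p = 0.124) was the highest estimate of the set. Without the pair of replicate 2, its adjusted p was 0.025, and the other alternatives left it above 0.05.

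Tfeb had 5.39, 5.78 and 5.26 CPM in acLDL-low and 5.58, 5.33 and 4.88 CPM in acLDL-high. The ranges overlapped, and the log2 fold change was -0.06 (SE 0.09, 95% interval -0.26 to 0.14, adjusted p = 0.795). Tfe3 had 96.4, 103 and 110.4 CPM in acLDL-low and 107, 103 and 105 CPM in acLDL-high. Its acLDL-high libraries lay within the acLDL-low range, and the log2 fold change was 0.02 (SE 0.05, adjusted p = 0.839). The location of these proteins in the cell, by which they are chiefly controlled, was not measured.

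In the V0 sector, Atp6v0b, a proteolipid of the proton-carrying ring, was called lower. Its gene lies on the minus strand at chr4:117884326-117887333. Atp6v0b stood at 128, 124 and 95.0 CPM in acLDL-low and at 112, 111 and 86.7 CPM in acLDL-high. The third library was the lowest of each population and the populations overlapped, but acLDL-high was the lower member of each pair. The log2 fold change was -0.17 (SE 0.04, 95% interval -0.26 to -0.08, adjusted p = 0.0366, edgeR). Of 9 alternatives, 5 left it under 0.05, with adjusted p from 0.0267 to 1 and log2 fold changes from -0.18 to -0.15. The gene overlaps Gm12841 on the opposite strand over 11.8% of its exons.

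The other V0 and accessory genes did not pass. Atp6v0c, the main proteolipid of the ring, was lower in 3 of 3 pairs with a log2 fold change of -0.07 (SE 0.06, adjusted p = 0.509). The annotated pseudogene Atp6v0c-ps2 held 2424 to 2968 counts per library against 1529 to 2196 for Atp6v0c itself. Their sequences were not compared and reads may be divided between them, so the value of Atp6v0c is uncertain. Atp6ap2, the prorenin receptor and pump accessory protein, was higher in 3 of 3 pairs at 0.10 (SE 0.05, adjusted p = 0.257). Atp6v0a1, the proton channel subunit, and Atp6ap1 were likewise higher in 3 of 3 pairs, at 0.07 and 0.05, and Atp6v0d1, which couples the sectors, had 0.03.

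No subunit of the V1 sector was called, and none of the 8 moved the same way in all 3 pairs. Their log2 fold changes ran from -0.04 for Atp6v1c1 to 0.06 for Atp6v1d, with a median of -0.0040. Atp6v1a, the catalytic subunit, had 0.05, its partner Atp6v1b2 -0.04, the stalk subunits Atp6v1e1 and Atp6v1g1 0.03 and -0.04, Atp6v1f -0.02 and the regulatory subunit Atp6v1h 0.01. Summed over all 14 pump genes, the level was 1195, 1161 and 1046 CPM in acLDL-low and 1176, 1141 and 1089 CPM in acLDL-high. The populations overlapped.

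**Figure D3:**
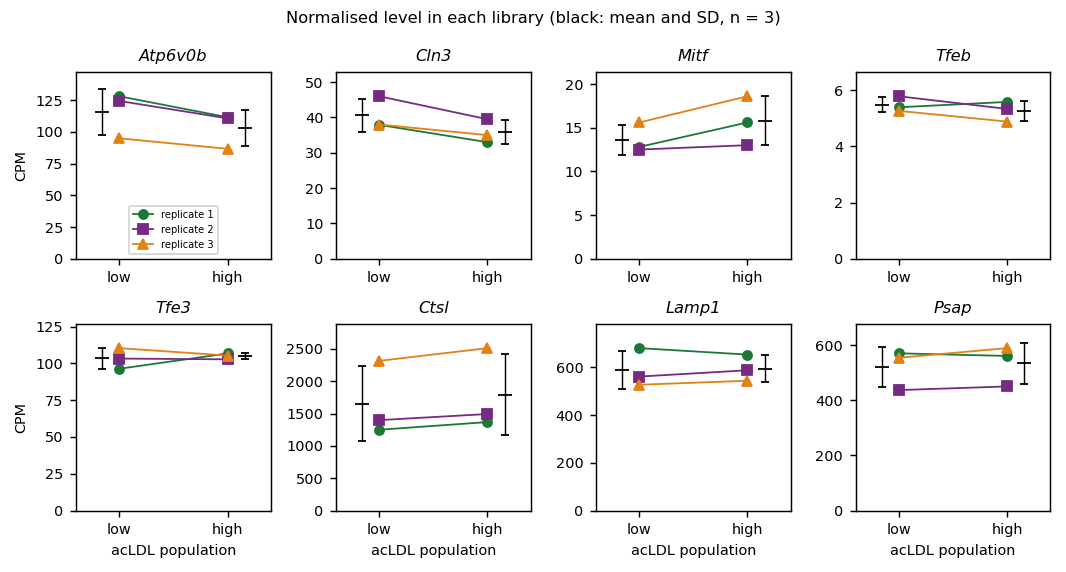
CPM of 8 lysosomal genes in each library, with lines joining the acLDL-low and acLDL-high libraries of a replicate number and black bars for mean and SD (n = 3). Cln3 and Atp6v0b slope down in all 3 pairs, Mitf and Ctsl slope up in all 3, and for Ctsl the third replicate stands above the others at 2314 and 2510.5 CPM.

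The estimates of these genes spread more widely over the occasions than with uptake, by measures that are not alike in kind. An F test of the replicate terms called 40 of the 49 (81.6%), where the background was 78.0% of all genes tested, so the share is near that of genes at large. From the lowest to the highest replicate the median range was 0.37 on the log2 scale, beside 0.45 over all genes, and it ran from 0.08 for Neu1 to 1.24 for Naglu. For all 49 genes this range was larger than the absolute log2 fold change with uptake, as it was for 12012 of the 12572 genes tested. A range from lowest to highest replicate tends to exceed a difference between population means, and for Gla the values were close, at 0.16 and 0.13. Naglu, for example, had 14.0, 10.6 and 23.8 CPM in the acLDL-low replicates and 15.5, 8.79 and 21.9 CPM in the acLDL-high ones, so that the second was lowest and the third highest in each population.

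The replicates were ordered differently for the degradative enzymes and for the V1 sector of the proton pump. Of the 23 hydrolases and cofactors tested, 18 were lowest in replicate 2, 5 in replicate 1 and 0 in replicate 3, and 14 were highest in replicate 3. Of these 23, 19 passed the F test. All 8 V1 subunits were lowest in replicate 3, of which 5 passed the F test. The 6 V0 and accessory genes did not share this order, with 1 lowest in replicate 1, 3 in replicate 2 and 2 in replicate 3, so that over the pump as a whole 10 of 14 were lowest in replicate 3. Over all genes tested, 39.9% were lowest in replicate 2 and 31.7% in replicate 3, and 30.6% were highest in replicate 3. The counts of lowest and highest replicates were the same with DESeq2 size factors for both groups of genes. By population, the V1 subunits were lowest in replicate 3 for 8 of 8 in acLDL-low and 6 of 8 in acLDL-high, and the hydrolases in replicate 2 for 18 of 23 and 15 of 23. Within acLDL-high, 3 of the 23 hydrolases were lowest in replicate 3, against 0 in acLDL-low. The genes share the same 2 libraries per occasion, so the counts describe these libraries and carry no test of the order.

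At the level of sums, the proteases reached 2388, 2446 and 3678 CPM in the acLDL-low replicates and 2526, 2561 and 3899 CPM in the acLDL-high ones, with the third above the others. Ctsl made up 52.3% to 64.4% of these sums, and without it they were 1139, 1048 and 1363 CPM in acLDL-low and 1158, 1069 and 1388 CPM in acLDL-high. Igf2r, a receptor for these enzymes, was also highest in the third replicate but lowest in the second, with 524, 399 and 761.6 CPM in acLDL-low and 521.5, 392 and 750.03 CPM in acLDL-high. Grn differed, with replicate 1 highest at 374 CPM in acLDL-low and 355 CPM in acLDL-high, and the second lowest at 205 and 218 CPM. Among the V1 subunits, Atp6v1f had 48.9, 61.4 and 39.3 CPM in acLDL-low and 48.3, 57.4 and 41.3 CPM in acLDL-high, so that the third replicate was the lowest of each population. What differed between the occasions is not given in the sources used here, and its part in these values was not tested.

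**Figure D4:**
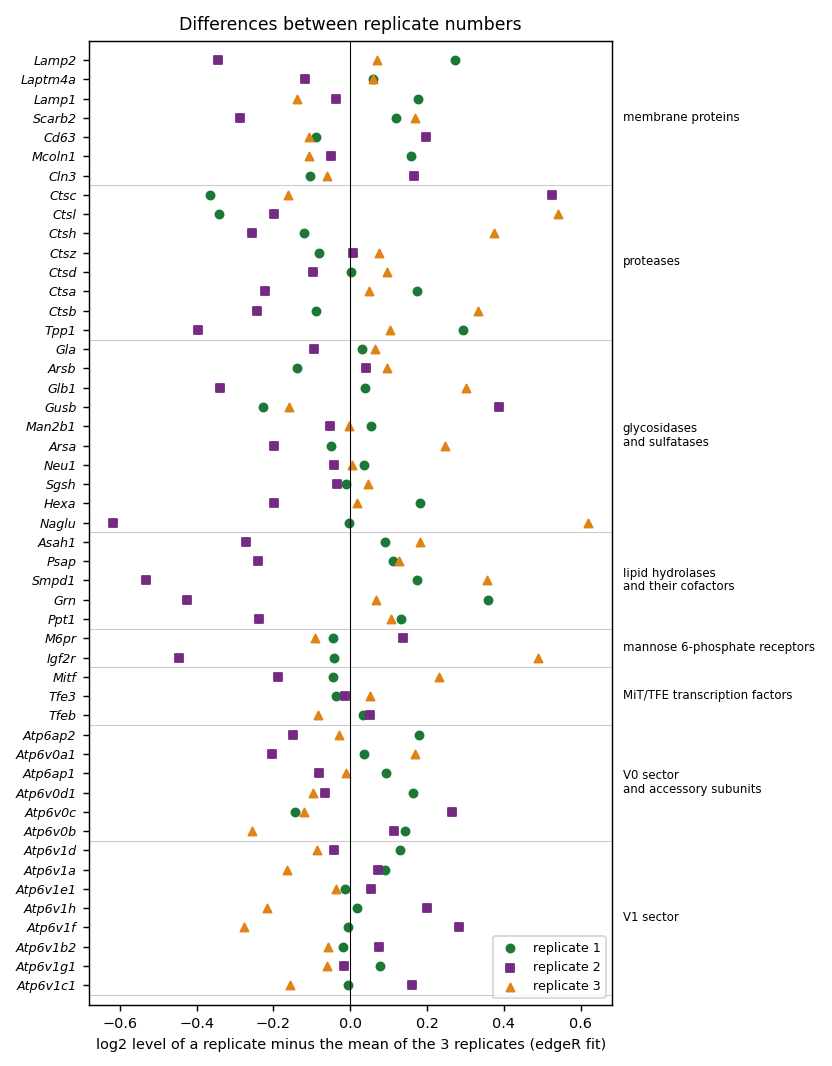
Log2 level of each replicate number minus the mean of the 3, from the edgeR fit with population as a term, for each of the 49 lysosomal genes tested, grouped by role. Replicate 2 lies lowest for 18 of 23 hydrolases and cofactors, replicate 3 lies lowest for 8 of 8 V1 subunits, and Naglu has the widest range at 1.24.

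Genes with and without the E-box were set side by side for the uptake comparison. Of the lysosomal genes with CACGTG in a promoter window, 15 were tested, 0 were called higher and 2 lower. Those 2 were Cln3, counted through the start inside its gene, and Atp6v0b, and their promoters are printed above. The median log2 fold change of the 15 was 0.01. Of the 26 with a window but no CACGTG, 0 were called in either direction, and the median was 0.03. Among all genes tested, 24 of 1136 with CACGTG were called higher and 14 lower, and 289 of 8716 without it were called higher and 121 lower. With only 2 lysosomal genes called, these counts are a description.

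Further genes of the same pathway, outside the set of 50, were counted in 6 lists of other lysosomal enzymes, other membrane proteins, other pump subunits, mannose 6-phosphate tagging, mTORC1 control of TFEB and autophagy. Of 94 genes, 86 were tested, 3 were called higher (3.49%, background 3.43%) and 2 lower (2.33%, background 1.32%). The higher ones were Gm2a (the GM2 ganglioside activator), with 26.9, 19.7 and 29.1 CPM in acLDL-low and 33.8, 24.4 and 33.6 CPM in acLDL-high (log2 fold change 0.28, adjusted p = 0.00964), Manba (beta-mannosidase, 0.22, adjusted p = 0.0314) and Atp6v1c2 (a tissue-restricted form of the pump's C subunit, 1.27, adjusted p = 0.027). Atp6v1c2 was at a low level, with 0.185, 0.569 and 0.286 CPM in acLDL-low and 0.767, 1.25 and 0.484 CPM in acLDL-high, and these ranges overlapped. The lower ones were Spns1 (a lysosomal lysophospholipid transporter, -0.23, adjusted p = 0.0226) and Gga3 (a sorting adaptor of mannose 6-phosphate receptors, -0.17, adjusted p = 0.0449). By list, 2 of 28 other enzymes were called higher, 1 of 15 other membrane proteins lower, 1 of 7 other pump subunits higher, 1 of 6 tagging and sorting genes lower, and 0 of 16 genes of mTORC1 control and 0 of 14 of autophagy in either direction. At an unadjusted p under 0.05 in edgeR's test, 23 of the 86 stood (26.7%), 9 higher and 14 lower, beside 19.4% of all genes. Of the mTORC1 control genes, 6 of 16 did (37.5%), 1 higher and 5 lower, and of the autophagy genes 2 of 14 (14.3%). By replicate, in the fit of both populations, 22 of 28 other enzymes were lowest in replicate 2 and 0 in replicate 3. In the same fit, 6 of 7 other pump subunits were lowest in replicate 3. Within acLDL-low, 22 of 28 other enzymes were lowest in replicate 2 and 0 in replicate 3, and within acLDL-high 20 and 3. The other pump subunits were lowest in replicate 3 for 4 of 7 in acLDL-low and 6 of 7 in acLDL-high. In the fit other lists were uneven too, and 10 of 16 genes of mTORC1 control were lowest in replicate 3 and 9 of 14 autophagy genes in replicate 2. By population, the mTORC1 control genes were lowest in replicate 3 for 10 of 16 in acLDL-low and 9 of 16 in acLDL-high. The autophagy genes were lowest in replicate 2 for only 6 of 14 in acLDL-low and 7 of 14 in acLDL-high. The other membrane proteins were lowest in replicate 2 for 8 of 15 and in replicate 3 for 5, and the tagging and sorting genes in replicates 1, 2 and 3 for 2, 1 and 3.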

How the data were processed

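Poly(A) RNA of 3 acLDL-low and 3 acLDL-high libraries was sequenced as paired reads of 50 bp. The authors aligned reads to mm10 with STAR 2.5.2a and deposited raw counts per gene made with featureCounts 1.4.3-p1. The annotation release and strand setting are not given in the sources used here. Their second deposited table, made with DESeq2 1.20.0, holds a mean normalised count (a signal over all libraries), log2 fold changes, standard errors and test statistics (scores) and p-values of their own comparison. Only its gene IDs and symbols were used, and 0 per-sample columns were left unmapped.

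Protein-coding genes of that table were tested on the deposited counts with edgeR 4.0.16 (R 4.3.3): filterByExpr, TMM, replicate number as a block as in the study's methods, glmQLFit and glmQLFTest, Benjamini-Hochberg adjustment over all 12572 genes tested, threshold 0.05, two-sided. SE is the absolute log2 fold change over the square root of F, and intervals are 95%. The replicate terms were tested together in the same fit. The fit was tested on simulated data. The series text gives separate occasions, and the deviations of same-numbered libraries from their population means correlated at 0.795, 0.846 and 0.799, so the numbers pair the libraries. Whether cultures within an occasion were separate is not given, so p-values measure the spread between these libraries. No libraries were duplicates: chi-square per degree of freedom was at least 18 between any pair.

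The genes with full values were those called, Tfeb, Tfe3, Mitf and the 5 highest per kb of exon (GENCODE M21 lengths and positions, GRCm38). Genes outside the set were named only if called, except markers and genes that may share reads. The genes, lists and tests were chosen with earlier results of these data known. Alternatives were no block, DESeq2 size factors, DESeq2 1.42.0, no filter, at least 10 counts in every library, all gene IDs, an adjusted p under 0.01 and leaving out each pair. RefSeq promoters were searched for CACGTG and TCACGTGA. The libraries' totals and 3-count floors cover counting error only.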

Additional observations from a re-analysis of the deposited data

How the results depend on the processing

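The number of all genes called with uptake, 597, became 0 with no replicate block, 932 with no filter on low counts, 199 at an adjusted p under 0.01, and 126 to 869 when a replicate pair was left out (126 without replicate 3). The lysosomal genes called lower, 2, became 0 with no replicate block, 1 with the DESeq2 test (Atp6v0b), 1 with at least 10 counts in every library, 0 over all gene IDs, 0 at an adjusted p under 0.01, and 0 to 1 with a replicate pair left out. Those called higher, 0, became 0 to 2 with a pair left out and stayed at 0 under the other alternatives. The genes called for the replicate term, 9802, became 6034 to 8213 with a pair left out, and the median log2 fold change of the set, 0.02, became 0.0056 to 0.0371. Of the 49 genes tested, 18 changed sign when some pair was left out (2 without replicate 1, 7 without replicate 2 and 10 without replicate 3), all with a main estimate of at most 0.13 in size. Among the 10 genes with full values these were Tfe3 (-0.0366 without replicate 1 to 0.072), Lamp1 (-0.0087 without replicate 2 to 0.0568) and Laptm4a (-0.0095 without replicate 2 to 0.0554), none of which passed under any alternative. Of 90 values of named genes under the alternatives, 75 kept direction and side of the threshold, 11 fell short of it and 1 passed it. The cause of these shifts was not tested. Another scaling moved the median of all genes by 0.003 on the log2 scale. The filter on low counts kept Ctss, with 11 counts in all, out of the test.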
